A study of Homo sapiens with 4 samples.

Results

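Collagen chain genes and the genes of the enzymes that modify collagen were followed in PC-3M-luc cells, a human prostate carcinoma line, after RNAi against LSD1. Members were all gene symbols made of COL, a number, A and a number, together with LOX, LOXL1 to LOXL4, P4HA1 to P4HA3, PLOD1 to PLOD3 and SERPINH1. This rule used no measured value and found 56 of the 22852 gene symbols in the count tables, 44 chains and 12 enzymes or chaperones. The control group held 2 libraries of cells given a control RNAi, and the knockdown group held 2 libraries of cells given RNAi against LSD1. All cells were transfected with Dharmafect 2 and harvested 72 h later. The labels call the libraries of a group biological replicates but do not say whether they came from separate cultures, so the p-values measure only the spread between these libraries. Results hold for a single cell line, and the sequences of the RNAi reagents are not known here.

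Collagens are secreted proteins in which chains wind around each other as a triple helix. Inside the endoplasmic reticulum, prolyl 4-hydroxylases (the P4HA genes) hydroxylate proline, which holds the helix together, lysyl hydroxylases (the PLOD genes) hydroxylate lysine, and the chaperone SERPINH1 binds the folded helix. Outside the cell, lysyl oxidases (LOX and the LOXL genes) oxidize lysine residues so that collagen and elastin become crosslinked. In carcinomas much of the collagen is known to come from fibroblasts of the stroma.

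KDM1A, the gene that encodes the demethylase LSD1, was at 235 and 238 CPM (read counts scaled to a common library size) in control libraries and at 17.85 and 18.09 CPM in knockdown libraries, 7.59% of control. Library totals over genes ran from 12041283 to 12832064 counts, so that 3 reads were worth 0.232 to 0.247 CPM. The epithelial markers KRT8, KRT18, KRT19, EPCAM and CDH1 were all expressed, whereas of the luminal prostate genes KLK3 was at 0 counts in all libraries and TMPRSS2 at 1 to 4. Of 7 fibroblast markers, LUM was at 0 counts, DCN and FAP at 0 or 1, and THY1 at 0 to 2. The summed level of these 7 was 23.3 and 23.4 CPM in control and 19.5 and 20.2 CPM in knockdown libraries, almost all of it from PDGFRA.

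Of the 56 members, 31 passed the filter on low counts and were tested, 21 chains and 10 enzymes or chaperones. In knockdown libraries 4 of these were higher and 10 were lower at an adjusted p under 0.05 (edgeR quasi-likelihood test, adjusted over all 13252 genes tested), and 17 did not pass. That is 45.2% of the tested members, where 36.1% of all tested genes were called. By direction, 12.9% of the tested members were higher against 18.2% of all genes, and 32.3% were lower against 17.9% of all genes. The median log2 fold change was -0.14 over the tested members and 0.0023 over all genes in the fit. Control and knockdown values were fully separated for 19 of the 31 members, or 61.3%, against 67.2% of all genes. The share of members called lower was thus above the background share, and the share called higher was below it. RNA was taken from whole cultures, so fewer cells that express a gene and less RNA per cell cannot be told apart.

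**Figure D1:**
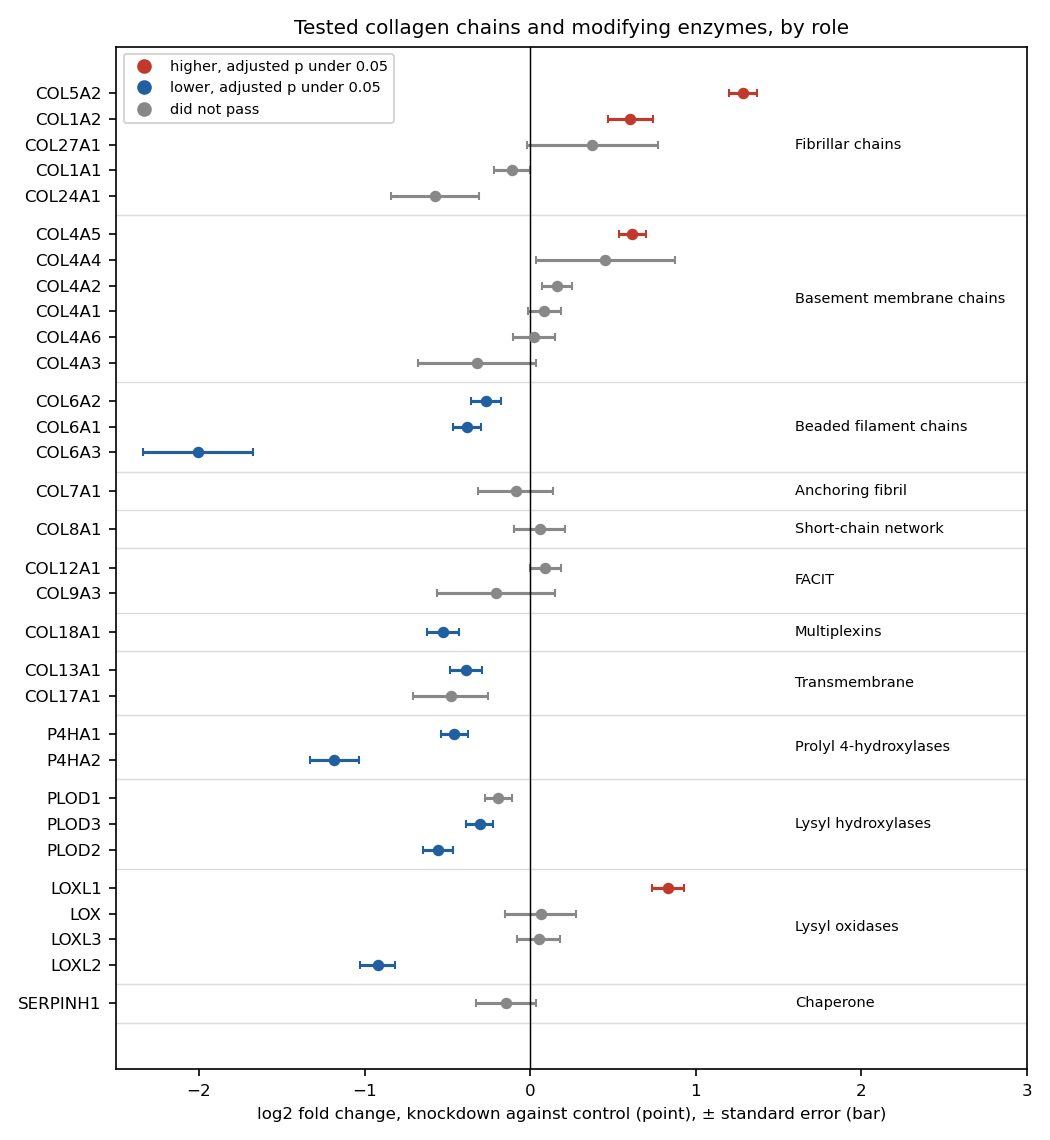
Each point is the log2 fold change of a tested member in knockdown against control libraries (2 libraries a group), with its standard error as a bar, and members are grouped by role on the vertical axis. COL5A2 stands farthest to the right at 1.29 and COL6A3 farthest to the left at -2.01. Of the 5 hydroxylase genes 4 passed the test as lower, where 17.9% of all tested genes did.

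Type IV collagen genes lie in head-to-head pairs, each pair transcribed in opposite directions from a shared start region, and the sequences of 3 such regions are shown because COL4A5 passed the test and its pair partner did not. Whether the members of a pair differed from each other was not tested. RefSeq promoter windows (GRCh38.p14, 250 bases before to 50 after a start) of both genes of a pair overlap over the stretches below, written along the plus strand with CG pairs in capitals.
COL4A5 and COL4A6, chrX:108439588-108439708: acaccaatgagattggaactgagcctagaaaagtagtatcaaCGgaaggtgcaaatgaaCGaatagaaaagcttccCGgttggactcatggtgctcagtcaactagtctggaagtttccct
COL4A2 and COL4A1, chr13:110307108-110307333: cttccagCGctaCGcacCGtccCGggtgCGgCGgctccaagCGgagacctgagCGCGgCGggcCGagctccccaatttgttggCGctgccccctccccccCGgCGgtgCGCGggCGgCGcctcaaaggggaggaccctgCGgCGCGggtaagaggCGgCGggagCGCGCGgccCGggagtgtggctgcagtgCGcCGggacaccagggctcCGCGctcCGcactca
COL4A3 and COL4A4, chr2:227164374-227164455: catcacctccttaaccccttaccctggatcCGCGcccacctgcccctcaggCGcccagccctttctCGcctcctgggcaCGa
The COL4A5 and COL4A6 stretch holds 3 CG pairs in 121 bases at 44.6% G or C. The COL4A2 and COL4A1 stretch holds 32 in 226 bases at 76.5%, and the COL4A3 and COL4A4 stretch 5 in 82 bases at 67.1%.

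The 6 type IV chains form the network of basement membranes, and all 6 passed the filter. COL4A5, the gene of a chain that takes part in 2 of the type IV networks, was at 92.6 and 96.5 CPM in control and at 144 and 147 CPM in knockdown libraries. Both knockdown libraries lay above both control libraries, and COL4A5 rose by 0.62 ± 0.0829 (standard error) on the log2 scale (edgeR adjusted p = 4.72e-07). COL4A6, its head-to-head partner, was at 18.4 and 16.55 CPM in control and at 16.3 and 19.2 CPM in knockdown libraries. The groups overlapped, at a log2 difference of 0.02 and a 95% interval from -0.24 to 0.29. The read count of COL4A5 over that of COL4A6, which does not depend on library size, was 5.04 and 5.83 in control and 8.81 and 7.65 in knockdown libraries. With 2 libraries a group, an exact permutation test of such a ratio cannot go below p = 0.333, so the ratios are given as values only.

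COL4A2 and COL4A1, the chains of the most widespread basement membrane network, did not pass the test. COL4A2 was at 72.9 and 67.3 CPM in control and at 74.9 and 81.85 CPM in knockdown libraries, which did not overlap, a log2 fold change of 0.16 with a 95% interval from -0.02 to 0.34. COL4A1 was at 39.0 and 41.4 CPM in control and at 40.4 and 45.0 CPM in knockdown libraries, which overlapped, a log2 fold change of 0.09 with an interval from -0.11 to 0.29. The ratio of COL4A2 to COL4A1 counts overlapped between the groups, at 1.87 and 1.62 in control and 1.86 and 1.82 in knockdown libraries. COL4A3 and COL4A4, the chains of the kidney and lung network, had 11 to 27 counts in each library and did not pass.

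Fibrillar collagens, which build the banded fibrils of connective tissue, held the member with the largest rise. COL5A2, a chain of the collagen V that sets the width of collagen I fibrils, was at 100.6 and 109.7 CPM in control and at 249.5 and 263.5 CPM in knockdown libraries. Both knockdown libraries lay above both control libraries, a log2 difference of 1.29 ± 0.0836 (standard error, edgeR adjusted p = 1.4e-13). COL5A1, which encodes the chain that COL5A2 chains pair with in most collagen V, had 1 count in 1 control library and 0 in the other 3 libraries. COL3A1, a fibrillar chain gene that lies beside COL5A2 in the genome, had 0 to 10 counts and was not tested.

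The chains of collagen I, the main fibrillar collagen of bone and skin, differed in their values. COL1A2 was at 13.3 and 20.1 CPM in control and at 25.6 and 25.1 CPM in knockdown libraries. Control replicate 1 was the lowest of the 4 by a wide margin, and COL1A2 rose by 0.61 ± 0.138 (standard error) on the log2 scale (edgeR adjusted p = 0.000736). Without control replicate 1 the log2 fold change of COL1A2 was 0.33 and the call was lost (edgeR adjusted p = 0.0773). COL1A1, its partner chain, was at 33.4 and 30.1 CPM in control and at 27.1 and 31.7 CPM in knockdown libraries, overlapping groups with a 95% interval from -0.33 to 0.11 for the log2 fold change. The count of COL1A2 over that of COL1A1 was 0.398 and 0.668 in control and 0.946 and 0.793 in knockdown libraries. COL24A1 and COL27A1, fibrillar chains at 0.988 to 3.78 CPM, did not pass.

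**Figure D2:**
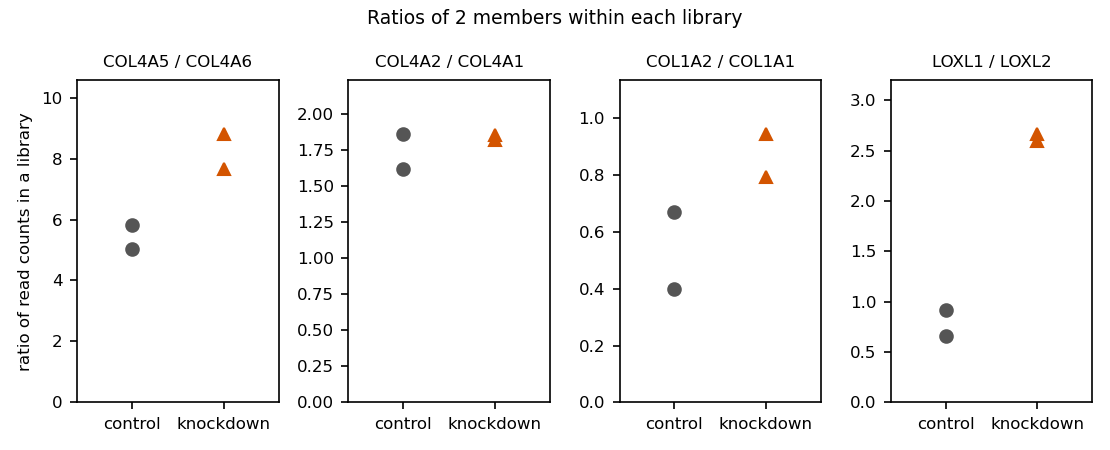
Each point is the ratio of the read counts of 2 members in a single library, with control libraries as circles and LSD1 knockdown libraries as triangles, on axes that start at 0. The ratios COL4A5 to COL4A6, COL1A2 to COL1A1 and LOXL1 to LOXL2 do not overlap between the groups, whereas that of COL4A2 to COL4A1 does. Each pair that does not overlap holds a gene called on these same counts, so its separation is no independent result. Of all tested genes taken singly, 67.2% have groups that do not overlap, and the share over all gene pairs was not computed.

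All 3 tested chains of collagen VI, which forms beaded filaments around cells, fell, where 17.9% of all tested genes were called lower. COL6A1, the most abundant member, was at 957 and 965 CPM in control and at 682 and 795 CPM in knockdown libraries. Knockdown replicate 1 was the lowest library, the groups did not overlap, and the log2 difference was -0.38 ± 0.0863 (standard error, edgeR adjusted p = 0.000729). COL6A2 was at 108 and 94.8 CPM in control and at 78.5 and 90.6 CPM in knockdown libraries, a log2 fold change of -0.26 (edgeR adjusted p = 0.0226). This call was lost without control replicate 1, at -0.17, without knockdown replicate 1, also at -0.17, and with DESeq2 (adjusted p = 0.0762). COL6A3, the chain that completes the usual collagen VI molecule, was at 3.54 and 3.87 CPM in control and at 0.655 and 1.16 CPM in knockdown libraries. Its raw counts were 44 and 47 against 8 and 15, and its log2 difference of -2.01 ± 0.332 (standard error) was the largest fall among the called members (edgeR adjusted p = 1.31e-05). COL6A5 and COL6A6, chains that can take the place of COL6A3, had at most 3 counts in any library.

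Among the other chains 2 fell. Of all 21 tested chains 5 were called lower, or 23.8% against 17.9% of all tested genes. COL18A1, a basement membrane proteoglycan core from which endostatin is cleaved, was at 104.5 and 91.8 CPM in control and at 61.4 and 74.8 CPM in knockdown libraries, a log2 fold change of -0.53 (edgeR adjusted p = 5.1e-05). Its annotated exons overlap those of SLC19A1 on the opposite strand over 1401 bases, and no source used here says that reads were counted by strand. SLC19A1 was at 52.6 and 49.8 CPM in control and at 59.1 and 62.2 CPM in knockdown libraries. Whether reads of either gene were counted for the other was not tested. COL13A1, a transmembrane collagen of cell adhesion sites, was at 46.9 and 46.7 CPM in control and at 36.8 and 34.7 CPM in knockdown libraries, a log2 fold change of -0.39 (edgeR adjusted p = 0.00178). COL12A1, a collagen on the surface of fibrils, was at 39.5 and 39.1 CPM in control and at 42.2 and 41.7 CPM in knockdown libraries, which did not overlap. It did not pass the test, with a 95% interval from -0.10 to 0.29 for the log2 fold change. COL7A1, COL8A1, COL9A3 and COL17A1 had mean levels of 1.551 to 11.2 CPM in each group and did not pass.

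COL18A1, COL6A1 and COL6A2 lie near each other on chromosome 21. Of 7 genes with a row in the tables from COL18A1 to COL6A2, 5 were tested, and these 3 collagen genes were the ones called lower. SLC19A1 was called higher at a log2 fold change of 0.25 (edgeR adjusted p = 0.0349), and COL18A1-AS1, with 3 to 16 counts, did not pass. This stretch was picked after the values were seen.

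Levels of different chains are ranked here per kilobase of transcript (RPKM). The count ratios of members given elsewhere are not corrected for length and serve only to compare libraries. COL6A1 had the highest level of any chain, 227 RPKM in control and 174 RPKM in knockdown cells, and made up 63.0% and 64.0% of the summed chain level in control against 52.9% and 54.9% in knockdown libraries. COL6A2 followed in control cells at 29.3 RPKM, then COL18A1 at 18.1, COL13A1 at 15.1, COL5A2 at 14.9 and COL4A5 at 14.6 RPKM. The control libraries of COL5A2, at 14.2 and 15.5 RPKM, spanned those of COL13A1 and COL4A5, so its place between them is not resolved. In knockdown cells COL5A2 was second at 36.2 RPKM, and its share of the chain level went from 3.96% and 4.36% to 11.6% and 10.9%. COL6A3 was far below its partner chains, at 0.345 RPKM in control and 0.0844 RPKM in knockdown cells. The summed level of all chains was 359 and 356 RPKM in control and 304 and 341 RPKM in knockdown libraries, and without COL6A1 it was 133 and 128 RPKM against 143 and 154 RPKM.

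**Figure D3:**
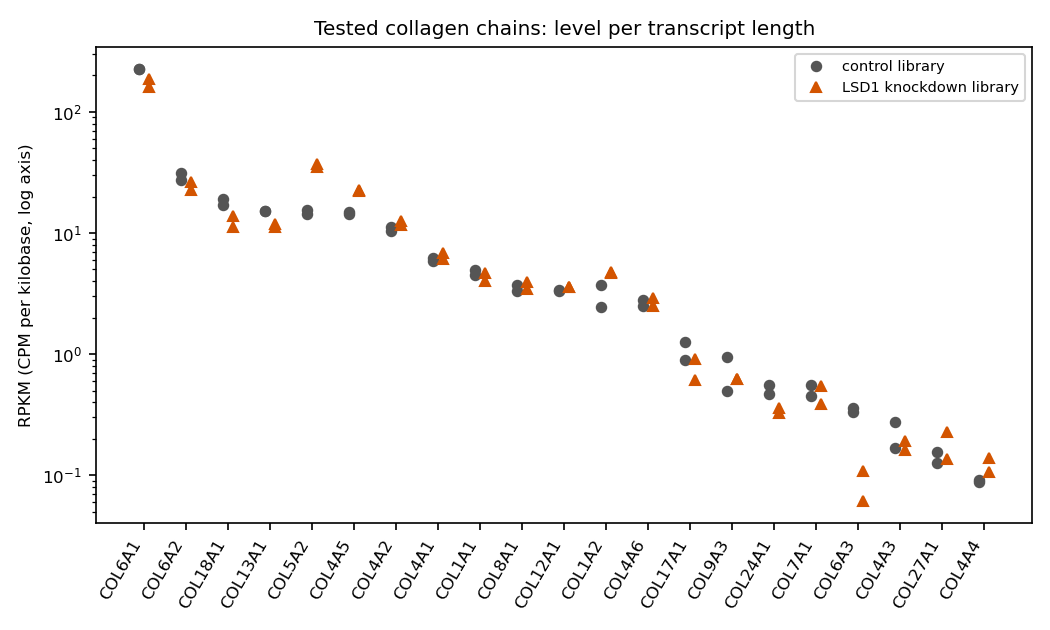
Levels per kilobase of transcript (RPKM, log axis) of the 21 tested collagen chains in each library, ordered by the control mean, with circles for control and triangles for LSD1 knockdown libraries. COL6A1 stands above all other chains in all 4 libraries, COL5A2 stands second in both knockdown libraries, and COL6A3 falls to the lowest level.

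Of the 25 members that were not tested, 23 were chains and 2, LOXL4 and P4HA3, were enzymes. COL11A1, COL15A1, COL20A1, COL22A1, COL23A1 and COL6A5 were at 0 counts in all 4 libraries. The other untested members had at most 13 counts in any library. At these depths a count of 0 in a library allows up to 0.232 to 0.247 CPM, counting error only.

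Of the 5 tested hydroxylase genes, 4 fell and PLOD1 did not pass, where 17.9% of all tested genes were called lower. P4HA1, the most abundant catalytic subunit of prolyl 4-hydroxylase here, was at 353 and 325 CPM in control and at 253 and 241 CPM in knockdown libraries. The groups did not overlap, and P4HA1 fell by 0.46 on the log2 scale (standard error 0.0814, edgeR adjusted p = 3.67e-05). P4HA2, a second catalytic subunit, was at 21.8 and 17.9 CPM in control and at 8.11 and 9.35 CPM in knockdown libraries, or 44.0% of control, a log2 difference of -1.18 ± 0.146 (standard error, edgeR adjusted p = 1.11e-07). The count of P4HA1 over that of P4HA2 was 16.2 and 18.2 in control and 31.2 and 25.7 in knockdown libraries. P4HA3 had at most 2 counts.

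The lysyl hydroxylase gene PLOD2, whose enzyme acts on the ends of collagen chains, was at 77.9 and 74.8 CPM in control and at 53.5 and 50.5 CPM in knockdown libraries. It fell by 0.56 on the log2 scale (standard error 0.0899, edgeR adjusted p = 9.59e-06). PLOD3, which can also add sugars to hydroxylysine, was at 134.5 and 129.7 CPM in control and at 105 and 109 CPM in knockdown libraries, a log2 fold change of -0.30 (edgeR adjusted p = 0.00395). PLOD1, the lysyl hydroxylase with the highest level per length, was at 319 and 315 CPM in control and at 281 and 273 CPM in knockdown libraries. Its groups did not overlap, but it narrowly missed the threshold, at a log2 difference of -0.19 and a 95% interval from -0.35 to -0.03 (edgeR adjusted p = 0.0582). SERPINH1, the collagen chaperone, was at 9.26 and 6.997 CPM in control and at 8.11 and 6.65 CPM in knockdown libraries, which overlapped.

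The lysyl oxidases went in both directions. LOXL1, which acts on elastic fibres and collagen, was at 32.1 and 38.4 CPM in control and at 63.4 and 62.3 CPM in knockdown libraries. The rise was 0.83 ± 0.0986 (standard error) on the log2 scale (edgeR adjusted p = 4.81e-08). LOXL2, which crosslinks collagen IV in basement membranes, was at 48.5 and 41.9 CPM in control and at 23.7 and 24.0 CPM in knockdown libraries, or 52.9% of control. It fell by 0.92 on the log2 scale (standard error 0.106, edgeR adjusted p = 2.93e-08). The count of LOXL1 over that of LOXL2 went from 0.663 and 0.916 in control to 2.67 and 2.59 in knockdown libraries. Per length, LOXL1 was at 13.7 and 16.3 RPKM and LOXL2 at 13.7 and 11.8 RPKM in control libraries, against 26.95 and 26.5 RPKM for LOXL1 and 6.69 and 6.77 RPKM for LOXL2 in knockdown libraries. LOX, the founding enzyme, and LOXL3 had overlapping groups, with 95% intervals for the log2 fold change from -0.37 to 0.50 and from -0.22 to 0.32.

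Exons of LOXL1 overlap those of the antisense gene LOXL1-AS1 over 232 bases, and reads of the pair cannot be told apart there without strand. LOXL1-AS1 was at 12.6 and 12.7 CPM in control and at 27.0 and 23.3 CPM in knockdown libraries and also rose, by a log2 fold change of 0.99 (edgeR adjusted p = 2.4e-07). The count of LOXL1 over that of LOXL1-AS1 overlapped between the groups, at 2.54 and 3.03 in control and 2.35 and 2.67 in knockdown libraries. LOXL2 exons overlap those of ENTPD4 on the same strand over 120 bases, and ENTPD4 had 598 and 608 counts in control and 560 and 635 in knockdown libraries. On the opposite strand, LOXL2 exons overlap another gene over 178 bases, and P4HA2 exons overlap those of P4HA2-AS1 over 199 bases. No counts were found under the names of these opposite-strand genes.

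**Figure D4:**
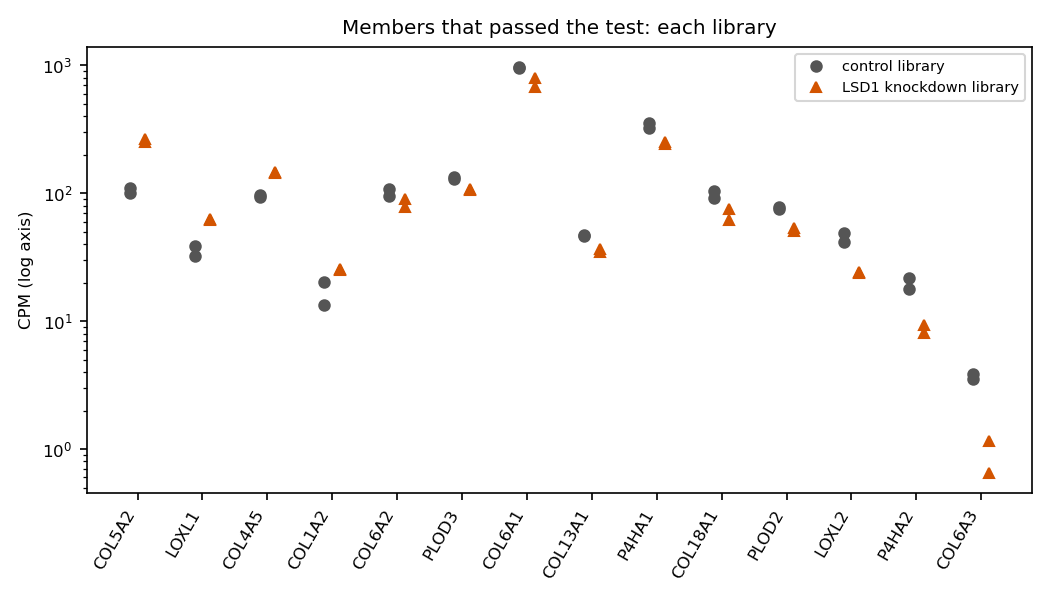
CPM (log axis) in each library of the 14 members that passed the test, ordered by log2 fold change, with circles for control and triangles for LSD1 knockdown libraries. The groups do not overlap for any of the 14, which were chosen by a test on these same values. Of all tested genes 67.2% have groups that do not overlap. On the log axis, the spread within the control group is widest for COL1A2, at 13.3 and 20.1 CPM.

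P4HA1, P4HA2, PLOD2 and LOX are known targets of hypoxia-inducible factors, which bind a response element whose core can be ACGTG. Of a list of 10 hypoxia-responsive genes set beside them, 8 fell, where 17.9% of all tested genes did, 0 rose and 2, VEGFA and ANKRD37, did not pass. The list was meant for description only and was chosen with earlier results of these data known. CA9, a carbonic anhydrase, was at 30.7% of control, BNIP3, a mitophagy receptor, at 35.4% and SLC2A1, a glucose transporter, at 62.8%. The smallest of these falls were in PDK1, at 74.1% of control, and EGLN3, at 79.7%. The summed level of the 10 genes was 3516 and 3947 CPM in control and 2163 and 2099 CPM in knockdown libraries. Most of it came from PGK1 and NDRG1, with control means of 1569 and 1515 CPM. LOX did not pass the test, at 4.43 and 4.94 CPM in control and 5.49 and 4.33 CPM in knockdown libraries. The part of the hypoxia-responsive genes in the values of the hydroxylases was not tested.

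RefSeq promoter windows (GRCh38.p14, minus strand, 300 bases) of 2 hydroxylase genes that fell and of LOX, which did not pass, are shown for comparison. ACGTG on either strand is in capitals, and other forms of the core were not searched.
P4HA1, chr10:73096817-73097116: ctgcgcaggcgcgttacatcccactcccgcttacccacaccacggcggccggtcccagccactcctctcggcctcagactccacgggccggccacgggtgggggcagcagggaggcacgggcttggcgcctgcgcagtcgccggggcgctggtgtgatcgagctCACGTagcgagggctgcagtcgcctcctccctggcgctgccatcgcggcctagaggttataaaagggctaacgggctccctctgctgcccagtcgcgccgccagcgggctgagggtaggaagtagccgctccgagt
PLOD2, chr3:146161135-146161434: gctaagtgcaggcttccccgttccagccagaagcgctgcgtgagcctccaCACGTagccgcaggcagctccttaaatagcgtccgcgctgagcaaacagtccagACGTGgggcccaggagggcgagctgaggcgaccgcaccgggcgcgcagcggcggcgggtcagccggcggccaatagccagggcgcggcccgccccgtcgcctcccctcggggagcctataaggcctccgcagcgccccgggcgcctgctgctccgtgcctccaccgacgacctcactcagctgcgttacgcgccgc
LOX, chr5:122078210-122078509: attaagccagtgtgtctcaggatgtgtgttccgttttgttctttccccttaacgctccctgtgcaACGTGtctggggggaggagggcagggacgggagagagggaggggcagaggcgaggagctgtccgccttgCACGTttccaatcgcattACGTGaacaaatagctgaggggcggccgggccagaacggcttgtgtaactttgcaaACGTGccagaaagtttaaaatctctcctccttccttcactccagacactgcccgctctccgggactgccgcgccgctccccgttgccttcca
P4HA1 has 1 match, PLOD2 has 2 and LOX has 4, while the windows of P4HA2 and PLOD3, which also fell, have 0. Of all 35116 promoter windows, 21.4% hold ACGTG on either strand, and 24.9% of the 27305 genes with a window hold it in at least 1. Of 24 tested members with a window 6 hold it in at least 1 window: COL12A1, COL4A3, LOX, P4HA1, PLOD2 and SERPINH1. By call, 2 of 8 members called lower hold it, 0 of 2 called higher and 4 of 14 that did not pass. A match is a description of these letters and not a measured binding site.

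Genes of the collagen pathway outside the rule were taken from lists of 60 genes found in the tables, of which 43 were tested, 11 rose and 8 fell. These are 25.6% higher and 18.6% lower, against 18.2% and 17.9% of all tested genes, and the number that fell was 5 without knockdown replicate 2 and 4 with DESeq2. In the list of other modification and folding factors 4 of 11 rose and 3 fell, or 63.6% called against 36.1% of all tested genes. FKBP14, a prolyl isomerase of the endoplasmic reticulum, rose from 11.9 and 13.7 to 25.3 and 24.0 CPM, and the hydroxylysine galactosyltransferase gene COLGALT1 from 298 and 291 to 369 and 402.5 CPM. COLGALT2 rose by a log2 fold change of 0.50. P4HB, the subunit that P4HA proteins need, fell from 817 and 781 to 651 and 656 CPM. The other 3 called genes, P3H4 (0.26), P3H2 (-0.57) and TMEM38B (-0.30), each lost the call under at least 3 alternatives.

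Among 9 genes listed under export from the endoplasmic reticulum 2 rose and 0 fell, or 22.2% called against 36.1% of all tested genes. CREB3L1, a membrane-bound transcription factor that activates collagen genes in bone, rose from 82.9 and 87.1 to 218 and 214 CPM (edgeR adjusted p = 5.26e-14), and the coat protein gene SEC31A rose by 0.56. MIA3, the receptor that loads collagen into transport carriers, was at 394 and 412 CPM in control and 383 and 356 CPM in knockdown libraries and did not pass.

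Of 6 tested genes of procollagen cleavage, 1 rose and 2 fell, or 50% called against 36.1% of all tested genes. TLL1, a protease of the BMP1 family, rose from 25.2 and 27.25 to 55.9 and 53.6 CPM. PCOLCE2 and PCOLCE, enhancers of that cleavage, fell by 1.23 and 0.66 on the log2 scale, and the PCOLCE call was lost with DESeq2 and without knockdown replicate 2. BMP1 did not pass, at a log2 fold change of 0.16.

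Among 8 receptors of collagen DDR1, a receptor tyrosine kinase, rose by 0.50 on the log2 scale and the integrin subunit gene ITGA2 fell by 0.66. These are 25% of the 8, where 36.1% of all tested genes were called. Of 5 tested genes of collagen breakdown 2 rose, or 40% against 18.2% of all tested genes. The 2 were collagenases, MMP13 from 3.70 and 6.01 to 36.0 and 33.5 CPM and MMP1 from 19.6 and 20.3 to 45.4 and 42.4 CPM. Of 4 tested collagen-binding matrix proteins SPARC, a collagen chaperone outside the cell, rose by 1.97, and FN1 and THBS1 fell by 0.75 and 0.49 on the log2 scale. That is 75% called in a list of 4, against 36.1% of all tested genes. The THBS1 call was lost with DESeq2 and without knockdown replicate 1.

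**Figure D5:**
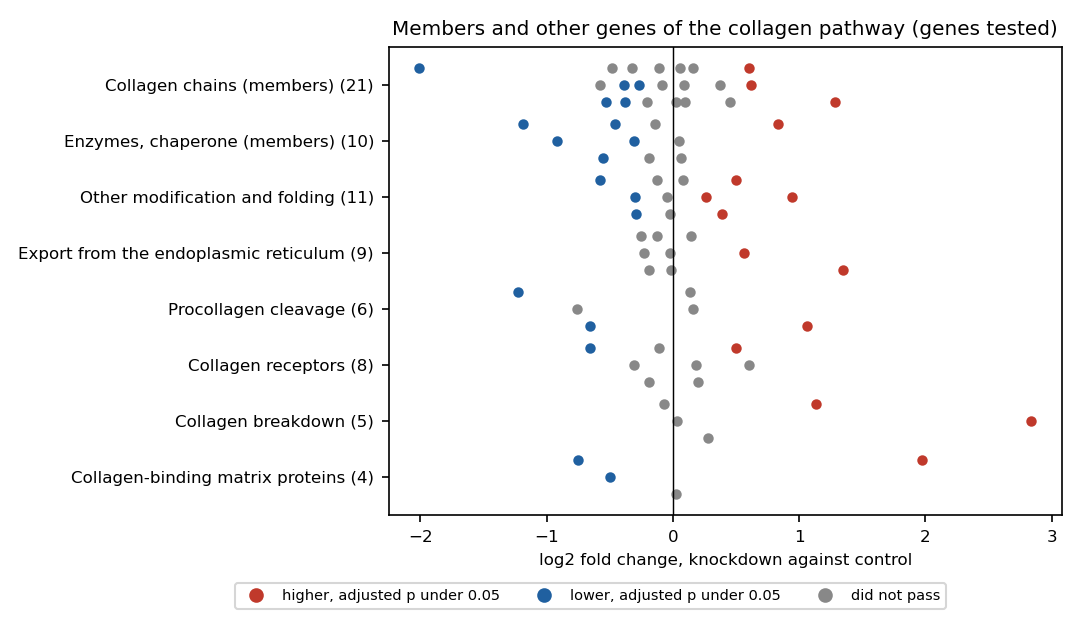
Each point is the log2 fold change of a tested gene in knockdown against control libraries, with the members in the upper 2 rows, the other pathway lists below, and the number of genes tested in brackets. The enzyme row has 5 of 10 points called lower and 1 called higher, where 17.9% and 18.2% of all tested genes were. MMP13 stands farthest to the right at 2.84.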

How the data were processed

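RNA-seq was run on total RNA of 4 PC-3M-luc libraries, and the authors deposited a table of raw read counts per RefSeq transcript for each, whole numbers with no header. The build hg19 and the tools TopHat2 2, HOMER, edgeR and DESeq 1.8.3 come from lists in the submitters' processing notes, without their roles, and no source used here gives the strand. The design text speaks of knockouts and the labels of RNAi, and libraries are treated as knockdowns.

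Left out were 1090 of 38767 rows that matched no symbol, with 1.38% to 1.4% of a library's counts. The row with the highest mean count stood for each symbol. Counts were scaled by TMM, filtered by filterByExpr (min.count 10, min.total.count 15) and tested with group as the only term by edgeR 4.0.16 (R 4.3.3), with Benjamini-Hochberg adjustment over 13252 genes and a threshold of 0.05. Standard errors and 95% intervals come from that test. RPKM used the length of the matching GENCODE 29 transcript, or for COL1A1 and COL24A1 of the longest coding transcript of the gene. On simulated counts for these groups (13141 genes), calls were made for 82.1% of 67 genes given a 1.5-fold change and 94% of 67 given a 2-fold change. The simulation had 194 calls, 5.15% of them false, where the data had 4787, so recovery in the data may differ. Genes with the lowest levels were given no change, so recovery for them was not measured.

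Members, lists and tests were chosen with earlier results of these data known. Values in each library are given for members that passed and for the 6 with the highest mean CPM that did not, and, of each pathway list, the up to 3 called genes with the smallest adjusted p are named. Others were named after their values were seen. Alternatives were other scaling factors, other filters, DESeq2 1.42.0, limma-voom 3.58.1, a replicate block, sums over rows and leaving out each library. Some genes of the luminal marker list are not reported here.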

Additional observations from a re-analysis of the deposited data

How the results depend on the processing

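The number of members called higher was 4 and that called lower 10, and under 12 alternatives they ran from 3 to 4 and from 9 to 12. Of the 14 called members, 12 kept their direction and call under all 12 alternatives, and the exceptions were COL1A2 and COL6A2, given above. PLOD1 passed with limma-voom and the replicate block. COL17A1 passed with the block, without control replicate 1 and without knockdown replicate 2. Without each library in turn the counts ran from 3 to 4 and from 9 to 11. Pathway genes outside the rule called lower numbered 8, but 4 with DESeq2 and 5 without knockdown replicate 2. Over all genes 4787 were called, and 3182 with DESeq2. The log2 fold change of KDM1A stayed between -3.73 and -3.68. The replicate number as a block called 12 members lower and 4 higher; the numbers are not known to pair the libraries, and the correlation of deviations between same-numbered libraries was 0.0793. The largest shift of the median over all genes was to 0.0374, with no normalization factor. Rows of the same gene gave log2 ratios within 0.05 of each other except for LOX (0.07 to 0.31) and COL6A3 (-2.08 to -0.89), where the 2 smallest falls came from rows with at most 12 counts in a library. Depth limits COL4A3, COL4A4, COL24A1, COL27A1, COL9A3 and COL6A3, which had under 50 counts in each library.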

Other observations

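Among the marker lists, 3 of the 5 epithelial genes rose, where 18.2% of all tested genes did. These were KRT8 by 0.47, EPCAM by 0.50 and the cell adhesion gene CDH1 by 1.28 on the log2 scale. KRT18 and KRT19, at log2 fold changes of -0.12 and -0.07, did not pass. KDR, a VEGF receptor listed as an endothelial marker, was at 20.4 and 28.6 CPM in control and 58.0 and 52.3 CPM in knockdown libraries and rose, while PECAM1 fell by 0.74. CDH5 was at 0 counts and VWF at 1 or 2 in each library. Of the leukocyte markers PTPRC and CD3E were at 0 counts in all libraries, LYZ rose from 4 and 2 to 17 and 13 counts, and CD79A fell from 50 and 33 to 15 and 27 counts. PDGFRB, a receptor of mesenchymal cells, had 2 and 2 counts in control and 6 and 11 in knockdown libraries and was not tested. PDGFRA, at 21.9 and 22.1 CPM in control and 18.7 and 18.4 CPM in knockdown libraries, did not pass.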
